A study of Mus musculus with 3 samples.

Results

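Pleiotrophin (Ptn) and midkine (Mdk), the receptors Ptprz1 and Alk, and the 4 syndecans (Sdc1, Sdc2, Sdc3 and Sdc4) were followed across single cells of 3 mouse cultures. These 8 genes, of 27886 listed in at least 1 of the 3 count tables, were selected on their levels and shares of cells in these same cultures. Their differences between cultures are therefore given as a description. All 8 were listed in the tables of embryonic stem cells and cardiac bodies, and 7 in the table of precursor cells, where Alk was not listed.

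Pleiotrophin and midkine are small secreted growth factors that bind heparin and form a family of their own. Both bind the sulfated sugar chains of cell surface proteoglycans, and both signal through Ptprz1, a receptor tyrosine phosphatase that carries chondroitin sulfate, and through other receptors. Syndecans are transmembrane proteoglycans with heparan sulfate chains that hold such factors at the cell surface. Midkine is known as a widely expressed factor of the early embryo, and pleiotrophin as a factor of mesenchyme, nervous tissue and developing bone.

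All cells came from male F1 stem cell clones of a C57BL/6J by CAST/EiJ cross, and none carried a transgene or deletion that the labels name. Mouse embryonic stem cells (mESC, 215 cells) were grown without feeders in medium with LIF and inhibitors of the MEK and GSK3 kinases. Cardiac precursor cell cultures (CPCC, 175 cells) came from hanging drop aggregates that formed embryoid bodies in medium with ascorbic acid. These were dissociated and the cells passaged with EGF and Fgf2. Cardiac bodies (CB, 232 cells) were aggregates kept floating in medium with ascorbic acid and picked while beating. The study used several clones, and the mESC label names a triplicate. There was 1 sample per group, so differences between cultures have no replicate check and were not tested.

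The median cell held 1528316 estimated counts in mESC, 1437414 in CPCC and 1397869 in CB. Levels are CPM, the counts of a gene relative to all gene counts (counts per 1e6), summed over the cells of a sample or pool. The columns fell into 3 pools in mESC, 2 in CPCC and 3 in CB. Libraries from a capture chip were pooled by the study and merged into 8 pools in all. The clones or cultures in a pool are not given by labels or columns, so pools are not treated as replicates and show the spread within a sample. The CB sample is labelled as mature cardiac cells, yet the 12 cardiomyocyte markers summed to 572 CPM in it and 64.5% of these counts came from 1 cell. Only 6 of its 232 cells had 5 or more of these markers at 10 or more counts. The pools of CB and of CPCC also differed in marker content. The summed fibroblast markers were at 15489 CPM in CB pool 1, 1018 in pool 2 and 16524 in pool 3, and the endothelial markers at 131, 1435 and 56.7 CPM. CPCC pool 1 held 5693 CPM of pluripotent markers and 356 of fibroblast markers, against 1242 and 3405 in pool 2. All 10 fibroblast and all 10 endothelial markers were listed in both tables. The part of these pool differences in the results below was not tested.

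By GENCODE annotation of the GRCm38 build, Ptn lies on the minus strand at chr6:36714929-36810220 and Ptprz1 on the plus strand of the same chromosome at chr6:22875502-23052916. Mdk is a compact gene at chr2:91929805-91932297, and Sdc4 lies at chr2:164424247-164443887, both on the minus strand. Sdc1 lies at chr12:8771323-8793715, Sdc2 at chr15:32920723-33034935 and Sdc3 at chr4:130792537-130826319, all on the plus strand, and Alk on the minus strand at chr17:71868972-72604627. Sdc3 overlaps 2 antisense genes and Alk overlaps 3 genes on its own strand and 1 on the other. The use of strand in counting was not given in the sources used here, so their reads cannot be told apart from those of the overlapping genes.

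The sequences upstream of the start are shown for the 3 members with the largest difference between CB and mESC, because their levels differed most while their promoters differ in composition. RefSeq promoter windows on GRCm38.p6 were matched for 6 of the 8 genes, all but Mdk and Sdc2, and the stretches below end at the base before the annotated gene start. They are chr6:36810221-36810429 on the minus strand for Ptn, chr4:130792287-130792536 on the plus strand for Sdc3 and chr6:22875252-22875501 on the plus strand for Ptprz1. Capitals mark matches on either strand to 3 promoter motifs that do not overlap each other in these stretches. The first, known as the TATA box, was searched with the letters TATAAA. The second, known as the GC box, was searched with GGGCGG. The last was searched with the letters CCAAT that give it its name.
Ptn: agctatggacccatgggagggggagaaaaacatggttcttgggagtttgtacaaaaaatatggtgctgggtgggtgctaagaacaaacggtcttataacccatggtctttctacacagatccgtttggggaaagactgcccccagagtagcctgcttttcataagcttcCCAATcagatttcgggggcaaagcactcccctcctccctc
Sdc3: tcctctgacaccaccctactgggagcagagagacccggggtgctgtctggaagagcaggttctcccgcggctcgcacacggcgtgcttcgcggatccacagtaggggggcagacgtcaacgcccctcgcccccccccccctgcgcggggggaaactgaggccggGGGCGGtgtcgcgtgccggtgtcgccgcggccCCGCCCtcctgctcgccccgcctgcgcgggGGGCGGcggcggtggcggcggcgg
Ptprz1: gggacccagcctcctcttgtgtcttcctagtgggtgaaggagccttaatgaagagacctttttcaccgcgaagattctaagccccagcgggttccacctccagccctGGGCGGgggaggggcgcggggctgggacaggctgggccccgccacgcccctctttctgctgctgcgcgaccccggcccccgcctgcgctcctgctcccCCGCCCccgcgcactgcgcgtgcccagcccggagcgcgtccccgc

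The Ptn stretch of 209 bases held 3 CpG dinucleotides and 1 CCAAT box. The Sdc3 stretch of 250 bases held 32 CpG and 3 GC boxes, and the Ptprz1 stretch of 250 bases held 22 CpG and 2 GC boxes. None of these stretches held a TATA box. Over 32851 promoter windows of 250 bases, 32.7% held a GC box, 33.8% a CCAAT box and 12.4% a TATA box. These matches are a description of letters and not of factor binding.

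Ptn was close to absent from mESC and one of the most abundant members in CB. In mESC it had 25 counts in 4 of 215 cells, a level of 0.0712 CPM (exact Poisson 95% interval 0.0461 to 0.105). The level was 76.3 CPM in CPCC (interval 75.3 to 77.3), while CB reached 664 CPM (interval 662 to 667). These intervals, like those below, cover counting error only. The pools of mESC held 0.127, 0.0801 and 0 CPM of Ptn, those of CPCC 4.24 and 144 CPM, and those of CB 821, 91.2 and 1123 CPM. Every CPCC and CB pool was above every mESC pool, whereas CB pool 2 lay between the CPCC pools. On the scale of log2(CPM + 1), which understates the change of low genes, Ptn was 6.17 higher in CPCC than in mESC, 9.28 higher in CB than in mESC and 3.11 higher in CB than in CPCC. Without CPCC pool 2 the first of these was 2.29 and the last 6.99, and without CPCC pool 1 they were 7.08 and 2.20. CB over mESC was 8.25 without CB pool 3 and 9.91 without CB pool 2, and CB over CPCC was 2.08 and 3.74.

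The share of cells with a Ptn count followed the same order. For mESC it was 1.86% (exact Clopper-Pearson 95% interval 0.509 to 4.69), for CPCC 30.3% (interval 23.6 to 37.7) and for CB 76.7% (interval 70.7 to 82.0). With every cell thinned to 430000 counts, to put cells at equal depth, the shares were 1.55%, 28.7% and 72.4%. Low counts make up part of these shares. With 10 or more counts required they were 0%, 20.6% and 62.9%, the first being 0 of 215 cells, where the limit of 3 cells is 1.40%. Among cells with a count the median Ptn level was 3.50, 23.5 and 283 CPM in the same order. In CPCC the single highest cell supplied 22.5% of all Ptn counts, and in CB 7.10%.

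Mdk was already abundant in mESC and higher in the other cultures. It stood at 177 CPM in mESC (interval 176 to 178), at 325 in CPCC (interval 322 to 327) and at 614 in CB (interval 612 to 617). The pools held 198, 162 and 175 CPM in mESC, 323 and 326 CPM in CPCC, and 467, 997 and 327 CPM in CB. The pools of the 3 cultures did not overlap, although the lowest CB pool, at 327 CPM, was next to the highest CPCC pool, at 326 CPM. On the log2 scale the difference was 0.87 for CPCC over mESC, 1.79 for CB over mESC and 0.92 for CB over CPCC. In CPCC 1 cell held 19.7% of all Mdk counts. Without the highest cell of each sample the difference of CPCC over mESC was 0.60 and that of CB over CPCC was 1.16. Without CB pool 2, the pool highest in Mdk, CB over CPCC was 0.19 and CB over mESC was 1.06, while CB over CPCC was 1.35 without CB pool 3. The share of cells with Mdk differed little and was 94.4%, 89.7% and 89.7%, or 98.4%, 91.7% and 92.9% after thinning, so the level and not the share carried the difference. The median of cells with a count was 168 CPM in mESC, 213 in CPCC and 472 in CB.

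**Figure D1:**
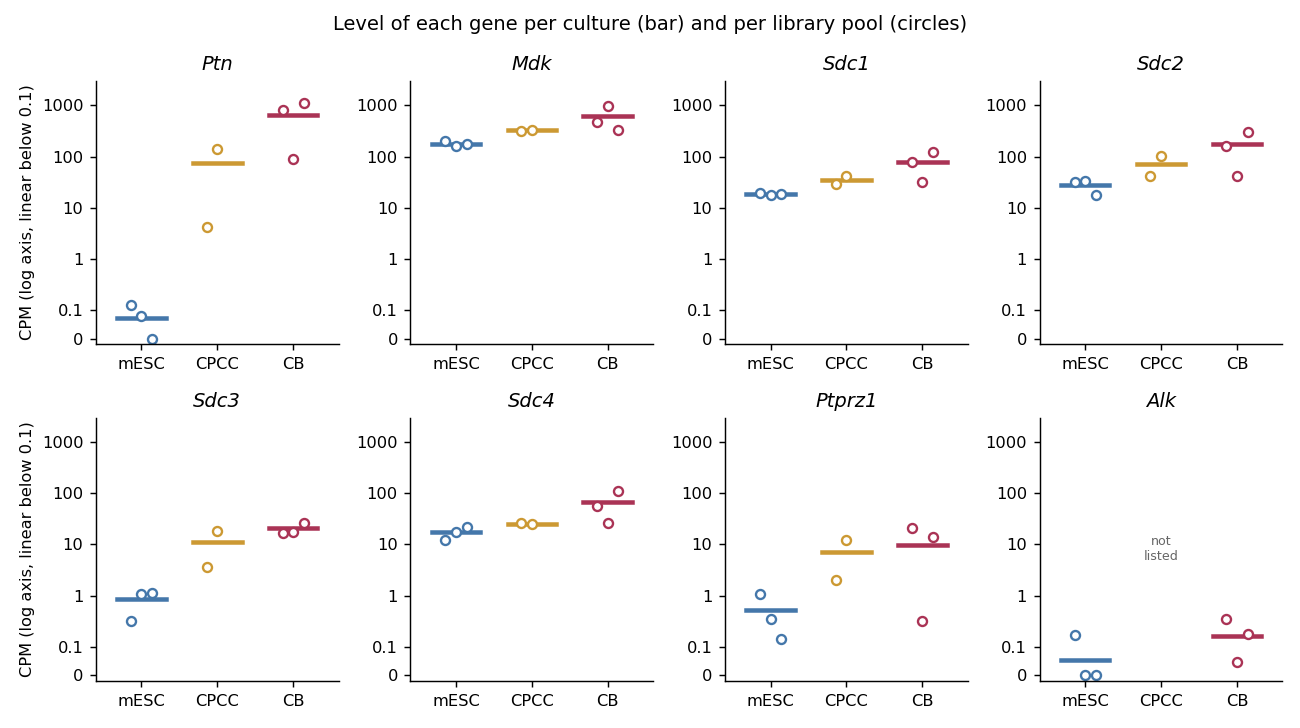
Level of each of the 8 genes in CPM (log axis, linear below 0.1), with a bar for the culture and a circle for each library pool. Ptn spans from 0.0712 CPM in mESC to 664 CPM in CB, Mdk from 177 to 614 CPM, and Alk is not listed in CPCC.

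The balance of both ligands differed between cells. Compared per kb of exon, which allows levels of different genes to be set side by side, Mdk exceeded Ptn in every culture when its pools were summed, at 134 against 0.0207 CPM per kb in mESC, 245 against 22.2 in CPCC and 464 against 194 in CB. The length used is that of all annotated exons, 3433 bases for Ptn and 1324 for Mdk. In CB the order depends on it, since in CPM Ptn stood at 664 and Mdk at 614. The order per kb in CB also rested on pool 2, at 26.6 CPM per kb of Ptn and 753 of Mdk. Pool 1 held 239 and 353, pool 3 held 327 and 247, and CB without pool 2 held 300.5 and 279, so that Ptn was then the higher. Among cells with at least 100000 counts, Ptn per kb was above Mdk in none of the mESC cells (0 of 203, which allows up to 1.80% by the exact interval), in 8 of 169 cells from CPCC (4.73%, interval from 2.07% up to 9.11%) and, among 219 cells of CB, in 70 (32%, from 25.8% up to 38.6%). By pool these CB cells were 26 of 63, 0 of 72 and 44 of 84, and the CPCC cells 0 of 78 and 8 of 91. The cells with more Ptn than Mdk were thus found in CB pools 1 and 3 and in CPCC pool 2. These pools were higher in summed fibroblast markers, but also in macrophage and blood markers and in neural markers. The macrophage and blood markers were at 299, 6.17 and 174 CPM in CB pools 1 to 3 and at 17.2 and 3987 CPM in CPCC pools 1 and 2. The other marker lists did not follow these pools in both cultures. The part of any of these cells in the pattern was not tested.

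**Figure D2:**
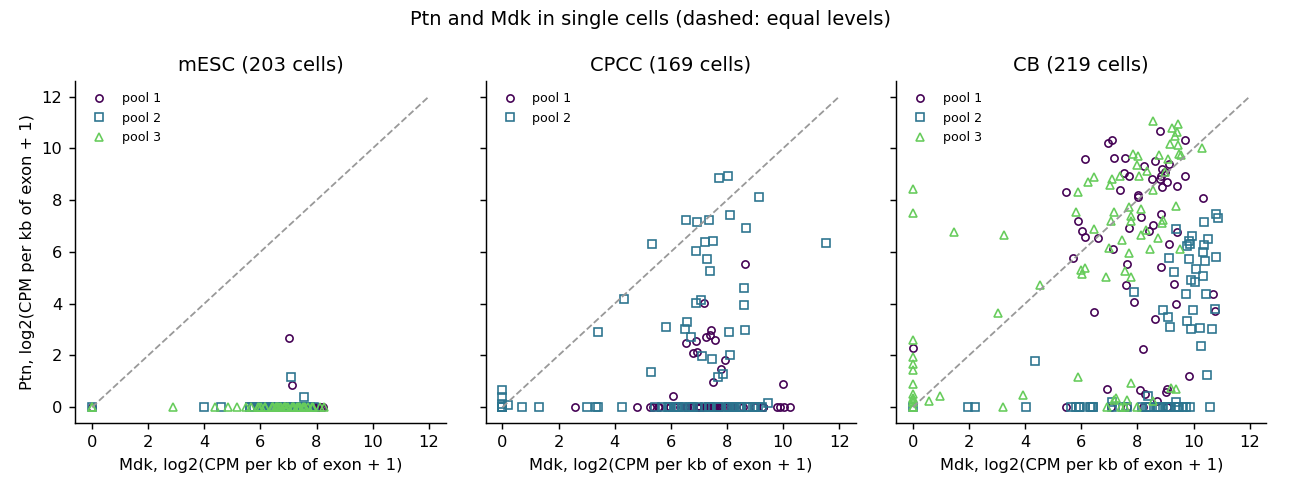
Ptn against Mdk in single cells with at least 100000 counts, both as log2(CPM per kb of exon + 1), 1 panel per culture with symbols for the pools. No mESC cell lies above the dashed line of equal levels, 8 CPCC cells do, and 70 of 219 CB cells do, none of them from CB pool 2.

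The receptor Ptprz1 was low in all 3 cultures and rested on few cells. Its level was 0.524 CPM in mESC (184 counts in 5 cells, 65.2% of them in 1 cell). It was 7.24 CPM in CPCC (1998 counts in 25 cells, 28.7% in 1 cell) and 9.95 CPM in CB (3364 counts in 19 cells, 31.5% in 1 cell). The pools held 1.09, 0.357 and 0.145 CPM in mESC, 2.0 and 12.1 in CPCC, and 20.9, 0.326 and 14 in CB. CB pool 2 lay among the mESC pools, and both CPCC pools lay above them. For this receptor the log2 difference was 2.43 for CPCC over mESC, 2.84 for CB over mESC and 0.41 for CB over CPCC. The last was 0.04, 1.05 and -0.06 without CB pools 1, 2 and 3, -0.26 without CPCC pool 1 and 1.87 without CPCC pool 2, and the first was 0.98 without CPCC pool 2. With all cells weighted equally the last was 1.51. The share of cells with a count was 2.33%, 14.3% and 8.19%, and after thinning 1.55%, 13.4% and 6.19%. This order of CPCC and CB ran against their CPM, so neither is read as the higher.

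Alk, a receptor tyrosine kinase named as a receptor of both ligands, was near the limit of detection. It had 19 counts in 1 mESC cell (0.0541 CPM, interval 0.0326 to 0.0845) and 54 counts in 3 CB cells (0.160 CPM, 0.120 to 0.208). The pools held 0.172, 0 and 0 CPM in mESC and 0.353, 0.0454 and 0.181 CPM in CB, so the cultures overlapped. Between them the log2 difference was 0.14.

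Summed over pools, the 4 syndecans were ordered alike in level in the 3 cultures. Sdc2 stood at 7.93 CPM per kb of exon in mESC, 20.5 in CPCC and 49.9 in CB. Sdc4 stood at 6.83, 9.93 and 26.5 CPM per kb, Sdc1 at 4.91, 9.25 and 20.8, and Sdc3 at 0.142, 1.91 and 3.54. The order was not that of every pool. In mESC pool 3 Sdc4 (8.75 CPM per kb) was above Sdc2 (5.08), and Sdc1 was above Sdc4 in mESC pool 1 (5.13 against 4.88) and in CPCC pool 2 (10.9 against 9.67). Each of the 4 was lowest in mESC and highest in CB when pools were summed.

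Sdc2, the syndecan best known from mesenchymal cells, stood at 28.0 CPM in mESC (interval 27.4 to 28.5), at 72.2 in CPCC (interval 71.2 to 73.2) and at 176 in CB (interval 175 to 177). The pools held 31.5, 32.7 and 17.9 CPM in mESC, 40.9 and 101 in CPCC, and 159, 41.9 and 307 in CB. CPCC and CB pools were all above the mESC pools, and CB pool 2 was next to the lower CPCC pool. The log2 difference was 1.34 for CPCC over mESC, 2.61 for CB over mESC and 1.27 for CB over CPCC. It was 0.53 for CPCC over mESC without CPCC pool 2. Without CB pool 3 it was 1.47 for CB over mESC and 0.14 for CB over CPCC, and the latter was 0.79 without CPCC pool 1 and 2.08 without CPCC pool 2.

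Sdc1, the main syndecan of epithelia, was at 18.7 CPM in mESC, 35.2 in CPCC and 79.1 in CB. Its pools held 19.6, 18.0 and 18.8 CPM in mESC, 28.6 and 41.5 in CPCC, and 78.6, 31.9 and 123 in CB. The mESC pools lay close together and below all others, while CB pool 2 fell between the CPCC pools. The log2 difference was 0.88 for CPCC over mESC, 2.02 for CB over mESC and 1.14 for CB over CPCC. The first was 1.11 without CPCC pool 1 and 0.58 without CPCC pool 2, and CB over mESC was 1.28 without CB pool 3. The last was 0.40 without CB pool 3, 0.91 without CPCC pool 1 and 0.95 with either TMM factors or DESeq2 size factors.

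Sdc4, a widely expressed syndecan found at focal adhesions, was at 17.4 CPM in mESC, 25.3 in CPCC and 67.4 in CB. Its pools held 12.4, 17.7 and 22.3 CPM in mESC, 26 and 24.6 in CPCC, and 57.6, 26 and 110 in CB. CB pool 2 was at the level of CPCC. The log2 difference was 0.51 for CPCC over mESC, 1.89 for CB over mESC and 1.38 for CB over CPCC, and without CB pool 3 the last 2 were 1.01 and 0.50. With all cells weighted equally CPCC over mESC was 0.08.

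Sdc3, the syndecan known best from neural tissue and muscle progenitors, was the one syndecan that few mESC held. It was at 0.851 CPM in mESC (299 counts in 7 cells), 11.4 in CPCC and 21.2 in CB. Its pools held 0.326, 1.06 and 1.13 CPM in mESC, 3.63 and 18.7 in CPCC, and 16.6, 17.2 and 26.9 in CB. Both later cultures were above mESC in every pool, and they overlapped each other. The log2 difference was 2.75 for CPCC over mESC, 3.58 for CB over mESC and 0.84 for CB over CPCC, the last 2.26 without CPCC pool 2, 0.17 without CPCC pool 1 and 0.54 without CB pool 3. Without CPCC pool 2 CPCC over mESC was 1.32, and with a pseudocount of 10 CPM it was 0.98.

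The shares of cells did not follow the levels of Sdc1, Sdc2 and Sdc4. Sdc1 had a count in 62.8% of mESC, 61.7% of CPCC and 56.0% of CB cells, or 59.6%, 61.1% and 55.7% after thinning. Sdc2 was found in 63.7%, 54.9% and 61.6% (61.7%, 54.8% and 60.5% thinned) and Sdc4 in 50.7%, 61.1% and 49.1% (48.2%, 59.9% and 47.6% thinned). No order of the cultures is read from these shares, which go against the CPM. Where the genes were found the level was higher in CB, with medians of 24.7, 42.8 and 85.5 CPM for Sdc1, 31.2, 45.9 and 151 CPM for Sdc2 and 17.5, 26.4 and 90.1 CPM for Sdc4 in mESC, CPCC and CB. Sdc3 was found in 3.26%, 33.1% and 26.7% of cells (3.11%, 33.8% and 27.1% thinned), with medians of 19.6, 21.5 and 50.9 CPM.

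Most cells held at least 1 syndecan at equal depth. At least 1 was found in 86.5% of 193 mESC, 87.9% of 157 CPCC and 90.5% of 210 CB cells. All 4 were found together in 1 mESC cell (0.518%, interval 0.0131 to 2.85), 31 CPCC cells (19.7%, 13.8 to 26.8) and 13 CB cells (6.19%, 3.34 to 10.4). The low number in mESC goes with the low share of Sdc3 there.

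**Figure D3:**
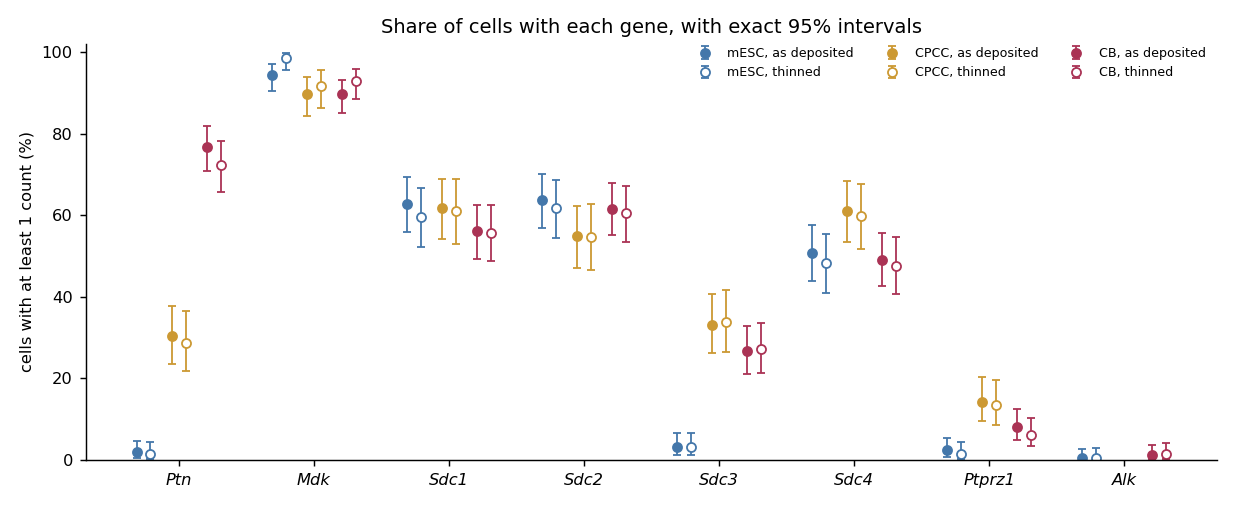
Share of cells with at least 1 count of each gene, in percent with exact 95% intervals, as deposited (filled) and after thinning to 430000 counts (open). Ptn goes from 1.86% in mESC to 76.7% in CB, while Sdc1, Sdc2 and Sdc4 stay between 49.1% and 63.7% as deposited in all 3 cultures.

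A member was called higher or lower where the log2 ratio of (CPM + 1) was at least 1 in size. In CPCC against mESC 4 of 7 members were higher (Ptn, Sdc2, Sdc3 and Ptprz1) and 0 lower, beside 13.4% of all 20272 genes listed in both tables that were higher and 6.38% lower. All 4 also had pools that did not overlap, as did 10.3% of all genes. In CB against mESC 7 of 8 were higher, all but Alk, and 0 lower, beside 24.9% higher and 11.3% lower of 19855 genes. Of these 7, 6 had pools that did not overlap, all but Ptprz1, beside 18.3% of all genes. In CB against CPCC 4 of 7 were higher (Ptn, Sdc1, Sdc2 and Sdc4) and 0 lower, beside 17% and 7.54% of 20995 genes. None of these 4 had pools that did not overlap, beside 9.78% of all genes. In CPCC against mESC 2 were higher without CPCC pool 2 or with a pseudocount of 10 CPM. In CB against mESC 6 were higher with that pseudocount, where Ptprz1 was at 0.92. In CB against CPCC 2 were higher without CB pool 3, and 2 without CPCC pool 1. In that comparison 6 were higher with all cells weighted equally, where Mdk (1.06) and Ptprz1 (1.51) passed the call, and 3 with TMM factors, DESeq2 size factors or a pseudocount of 10 CPM. The members were selected on these levels, so nothing is read from their counts. The 3 comparisons share samples and are not independent.

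The median log2 ratio of the members was 1.34, 2.32 and 1.14 in the same order, and that of all genes -0.02, 0.13 and 0.14. With TMM factors the medians of all genes in the comparisons of CB were both 0.02. The members nearest to the call on either side were Sdc2 (1.34) and Sdc1 (0.88) in CPCC against mESC, and Sdc1 (1.14) and Mdk (0.92) in CB against CPCC. In CB against mESC no member was close to it, the lowest called being Mdk (1.79) and the only one not called Alk (0.14).

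The cells of each sample were clustered with the 8 genes left out of the genes that formed the clusters, so that their own counts did not make them. Pools and clusters went together. CB gave 5 clusters. Cluster 0 (89 cells, 58 of them from pool 2) was led by Car14 and Sall4 and is unnamed. Cluster 1 (43 cells, 36 from pool 3) was fibroblast-like, with the full list of 10 fibroblast markers found in most of its cells and Penk, Aspn and Ogn among its leading genes. Cluster 2 (43 cells, 32 from pool 3) was led by Serpinb11, Krt15 and Krt6a. All 8 epithelial, 7 of 10 fibroblast and 3 of 8 epicardial and mesothelial markers were each found in most of its cells. Cluster 3 (37 cells, 27 from pool 1) was led by Dlk1 and also held Tagln and Acta2, genes of contractile cells, with all 10 fibroblast markers, and is unnamed. Cluster 4 (20 cells, all from pool 2) was endothelial-like, with all 10 markers.

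In CB, Ptn and Sdc2 were highest in clusters 1 and 3, where all 10 fibroblast markers were found in most cells. Cluster 2, with 7 of 10, was below cluster 0 in both genes. Ptn was at 292, 1487, 170, 1492 and 6.91 CPM in clusters 0 to 4. Clusters 1 and 3 together held 78.7% of its counts in 35.1% of the depth. Sdc2 stood at 79.8, 477, 49.4, 228 and 28.8 CPM, and the same clusters held 76.4% of its counts. Within cluster 0 the pools still differed, with Ptn at 700, 115 and 1811 CPM and Sdc2 at 151, 45.6 and 390 CPM in pools 1, 2 and 3. Of the 20 endothelial-like cells, 6 had a Ptn count, at 6.91 CPM, a low level behind that share.

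Mdk was highest in the unnamed cluster 0 of CB, at 1025 CPM, against 433, 222, 398 and 485 CPM in clusters 1 to 4. Cluster 0 held 62.4% of all Mdk counts in 37.4% of the depth. Within it Mdk was at 516 CPM in pool 1, 1142 in pool 2 and 505 in pool 3, so the high level was that of pool 2.

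Sdc1 and Sdc4 were highest in the keratin-led cluster 2. Sdc1 was at 40.2, 101, 167, 69.3 and 12.2 CPM in clusters 0 to 4, and Sdc4 at 25.2, 65.6, 170, 76.6 and 17.0 CPM. Cluster 2 held 40.0% of the Sdc1 and 47.5% of the Sdc4 counts in 18.9% of the depth, and 90.7% and 97.7% of its cells had a count. Over its cells the log2 levels of both genes correlated at r = 0.45, against -0.11, 0.07 and 0.17 in CB clusters 0, 1 and 3 and 0.07 and 0.01 in CPCC clusters 0 and 1, a description of cells that share libraries and depth. Ptprz1 was at 53.4 CPM in cluster 3, where 3 of 37 cells (8.11%) held all its counts, and at most 6.22 CPM elsewhere, with 10 of 89 cells (11.2%) in cluster 0.

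CPCC gave 5 clusters as well. Cluster 0 (66 cells, 57 from pool 1) was pluripotent-like, since each of the 10 pluripotent markers was found in most of its cells, as were 7 of 8 epithelial markers. Cluster 1 (56 cells, 37 from pool 2) was led by collagens and is unnamed, since 6 of 10 fibroblast and 4 of 5 smooth muscle markers were in most of its cells. Cluster 2 (29 cells, 27 from pool 2) was led by Fgf8 and Fgf5, and 8 of 10 pluripotent and 7 of 8 epithelial markers were each found in most of its cells. Cluster 3 (14 cells, all from pool 2) was macrophage-like, with 7 of 8 listed markers, and cluster 4 (10 cells) was shallow with a median mitochondrial share of 54.4%.

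The Ptn counts of CPCC came mostly from some cells of the collagen-led and the Fgf8-led clusters. Its summed level was 2.79, 160, 117, 4.63 and 0 CPM in clusters 0 to 4, and clusters 1 and 2 held 98.0% of its counts. The mean over cells was 139 CPM in cluster 1 and 41.3 CPM in cluster 2, and the median cell was at 0 CPM in every cluster. Over all of CPCC 3 cells reached 50% of the Ptn counts and 5 cells held 69.4%. The share held by the highest cluster changed with the cluster settings, as given at the end. Ptn had a count in 26 of 56 cells of cluster 1 (46.4%), in 10 of 29 of cluster 2 (34.5%) and in 5 of 14 of the macrophage-like cluster (35.7%). After thinning these shares were 44.4%, 32% and 23.1%. Within cluster 1 Ptn was at 8.10 CPM in pool 1 and 237 CPM in pool 2. Mdk had a summed level of 214, 535, 356, 1.96 and 1.23 CPM, so the macrophage-like cells were almost without it. The median cell was at 184, 205 and 355 CPM of Mdk in clusters 0, 1 and 2, so no order of clusters 1 and 2 is read.

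The syndecans of CPCC were divided by cluster. Sdc2 was at 171 CPM in cluster 1, 13.3 in cluster 0 and 23.1 in cluster 2. Cluster 1 held 89.3% of its counts and 83.4% of those of Ptprz1. For Ptprz1 only 15 of the 56 cells of cluster 1 had a count, and 1 cell held 28.7% of all its counts in CPCC. Sdc3 had a summed level of 36.4 CPM in the macrophage-like cluster 3, 18.0 CPM in cluster 1 and 1.81 or less elsewhere. The median cell was at 9.83 CPM in cluster 3 and 13.9 CPM in cluster 1, and 57.1% and 75% of their cells had a count, so no order of these 2 clusters is read. Clusters 1 and 3 together held 96.1% of its counts. Sdc1 had 0 counts in the macrophage-like cells, which allows up to 23.2% of such cells by the exact interval over 14 cells, and stood at 65.2 CPM in cluster 2 and 50.4 in cluster 1. Sdc4 was at 18.6, 35.5, 23.9 and 18.5 CPM in clusters 0 to 3.

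**Figure D4:**
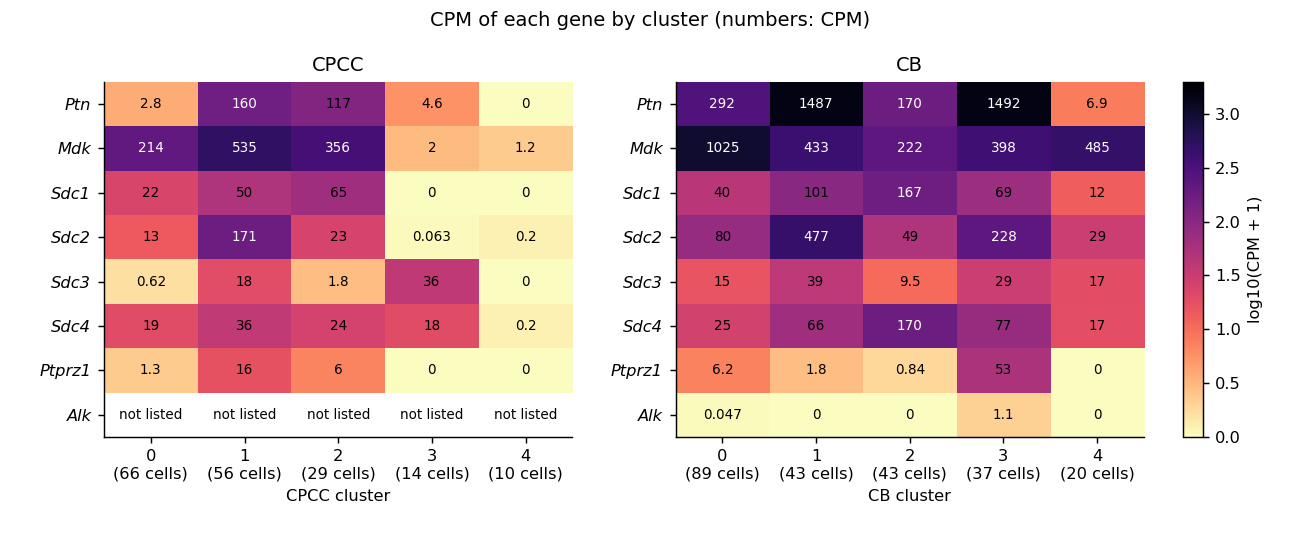
CPM of each gene by cluster in CPCC (left) and CB (right), the number in each field being the CPM and the colour its log10(CPM + 1). In CB, Ptn is at 1487 and 1492 CPM in clusters 1 and 3, Mdk at 1025 CPM in cluster 0, and Sdc1 and Sdc4 at 167 and 170 CPM in cluster 2.

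Sdc2 was found more often in cells with Ptn than in cells without it in both CB and CPCC. At equal depth Sdc2 had a count in 73.7% of 152 CB cells with Ptn (interval 65.9 to 80.5) and in 25.9% of 58 CB cells without it (15.3 to 39.0). For Sdc1 the CB shares were 57.2% and 51.7%, for Sdc4 48.7% and 44.8%, and for Sdc3 28.9% and 22.4%. In CPCC Sdc2 had a count in 80% of 45 cells with Ptn and 44.6% of 112 cells without it. The CPCC shares were 51.1% and 26.8% for Sdc3, 73.3% and 56.25% for Sdc1 and 66.7% and 57.1% for Sdc4. The log2 levels of Ptn and Sdc2 correlated at r = 0.53 over 219 CB cells and 0.43 over 169 CPCC cells, at 0.47, 0.32 and 0.49 in the CB pools and at 0.21 and 0.49 in the CPCC pools. Inside CB clusters 0 to 3 the values were 0.43, 0.32, 0.25 and 0.36. Ptn and Mdk correlated at 0.28 over the CB cells and at 0.09, 0.56 and 0.55 in its pools. Inside CB clusters 0 to 3 they correlated at 0.38, 0.35, 0.23 and 0.58, so within pools 2 and 3 and clusters 1 and 3 these values were above those of Sdc2. All are descriptions over cells that share libraries, pools and depth.

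The genes with a pattern most like that of Ptn over the 219 CB cells, among 9924 genes compared, were Mfap4 (r = 0.57), Mfap2 (0.57), Col1a2 (0.56), Col3a1 (0.56) and Gas1 (0.54), which include microfibril and collagen genes. In CB pool 2 alone r was 0.39, 0.46, 0.22, 0.23 and 0.49 in the same order, lowest for the collagen genes. Over 169 CPCC cells the genes most like Ptn were Nfix (0.60), Col8a1 (0.59), Dclk1 (0.58), Mn1 (0.56) and Mfap2 (0.56), with r between 0.02 and 0.25 in pool 1. For Mdk in CB they were Gm10282 (0.55), H1f10 (0.50), Mest (0.50), Gm9800 (0.49) and Hmgn2 (0.48). For Mdk in CPCC the highest was Nedd4, with r = 0.82 but Spearman's rho = 0.20 and r = -0.07 in pool 1. In mESC the highest for Mdk was Sap18b, with r = 0.75 and rho = 0.11. Over the 8 pools the closest to Ptn among 12111 genes were Zfp703 (r = 0.996), Flrt2, Galnt4, Cacna2d1 and Nfia (0.992), and the closest to Mdk Gxylt1 (0.992), Acvr2a, Cul4a, Ripor1 and Mttp (0.972). The 8 pools come from 3 cultures, and nothing is read from these values beyond the order of the pools.

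The wider pathway was read from 7 lists with 98 genes in all. In CPCC against mESC 42 of 89 genes listed in both tables were higher and 2 lower (Ltk and Chst3). In CB against mESC 58 of 87 were higher and 3 lower (Ltk, Ncl and Chst3), and in CB against CPCC 28 of 92 were higher and 3 lower (Lrp8, Ncl and Hs3st1). The lower genes Ltk, Chst3 and Ncl are named because they were few, after their values were seen. Ncl, nucleolin, which binds midkine, was at 1779 CPM in mESC, 1391 in CPCC and 659 in CB. The shares of all genes given above were 13.4%, 24.9% and 17% higher and 6.38%, 11.3% and 7.54% lower. The lists were chosen with earlier results of these data known, so nothing is read from their counts beside these shares. With a pseudocount of 10 CPM the genes called higher were 18, 33 and 14 in the same order, beside 5.13%, 11.7% and 5.55% of all genes.

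Of the 16 other receptors of pleiotrophin and midkine, 9 were higher and 1 lower in CPCC than in mESC (median log2 ratio 1.16), and 10 were higher and 2 lower in CB than in mESC (2.02). Nrp1, a neuropilin that also serves as a receptor for VEGF, was at 0.0769 CPM in mESC, 35.7 in CPCC and 119 in CB. Its pools did not overlap, at most 0.165 CPM in mESC, 8.71 and 61.0 in CPCC and 99.4 to 124 in CB. In CB it was highest in the endothelial-like cluster, at 336 CPM, where Ptn was lowest. Itgb1, the common beta chain of many integrins, was at 77.1, 843 and 605 CPM, and Nrp2 at 2.65, 32.3 and 87.8 CPM. Lrp6, a coreceptor of Wnt, was at 21.2, 25.9 and 104 CPM, and Lrp8, a receptor of reelin, at 9.77, 15.4 and 6.45 CPM. The ALK ligand Alkal1 was not listed in mESC and Alkal2 in no culture, so no ALK ligand was compared with mESC. Of the 5 adaptors (Frs2, Shc1, Irs1, Grb2 and Ptpn11), 1 was higher in CPCC than in mESC, and 4 were higher in CB than in mESC. In CB over mESC Shc1 (1.05) and Frs2 (1.03) were next to the call.

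Of the other proteoglycans, 8 of 14 were higher in CPCC than in mESC (median 1.07) and 10 of 12 in CB than in mESC (2.14), with 0 lower in either. Cd44, the hyaluronan receptor, was at 0.0683, 68.2 and 53.2 CPM in mESC, CPCC and CB. The glypican Gpc3 was at 38.8, 89.0 and 581 CPM, and the matrix proteoglycan versican (Vcan) at 28.3, 54.8 and 247 CPM. Tgfbr3, betaglycan, was at 4.84, 2.36 and 42.1 CPM.

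Of 22 enzymes of the linker and of heparan sulfate, 7 were higher in CPCC than in mESC (median 0.63) and 13 in CB than in mESC (1.39). Hs6st2, a sulfotransferase, was at 0.678, 52.9 and 36.7 CPM, and Hs3st1, another, at 2.43, 53.9 and 14.2 CPM. Sulf1, which removes sulfate from heparan sulfate outside the cell, was at 6.68, 43.2 and 94.6 CPM. Of 14 chondroitin sulfate enzymes, 8 were higher and 1 lower in CPCC than in mESC (1.27), and 10 higher and 1 lower in CB than in mESC (1.45). Chst14, the dermatan sulfotransferase, was at 1.3, 23.4 and 32.5 CPM.

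Of the 11 cytoplasmic partners of syndecans, 5 were higher than in mESC in each of the other cultures (medians 0.87 and 0.97). Sdcbp, syntenin, which binds the syndecan tail, was at 127, 580 and 474 CPM, and Tiam1, an exchange factor for Rac, at 8.59, 3.97 and 18.8 CPM. Of 7 sheddases and their inhibitor, 4 were higher in CPCC (1.14) and 6 in CB (2.42). Mmp2, a gelatinase, was at 3.29, 154 and 515 CPM, Mmp14, its membrane-bound activator, at 1.75, 59.8 and 154 CPM, and the inhibitor Timp3 at 2.5, 199 and 335 CPM. The Mmp2 pools of CB were at 380, 126 and 931 CPM, the lowest in pool 2, and its highest CB cluster was the fibroblast-like cluster 1, at 1605 CPM.

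In CB against CPCC, where 17% of all genes were higher, the other receptors had 6 of 16 higher and 2 lower (median 0.44), the ALK ligands and adaptors 1 of 6 higher (0.40), the other proteoglycans 5 of 13 higher (0.75) and the linker and heparan sulfate enzymes 5 of 24 higher and 1 lower (0.48). The chondroitin sulfate enzymes had 4 of 14 higher (0.43), the partners 2 of 11 (-0.04) and the sheddases 5 of 8 (1.31). For the ALK ligands and adaptors, the heparan sulfate enzymes and the partners these counts are 16.7%, 20.8% and 18.2%, near the share of all genes.

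**Figure D5:**
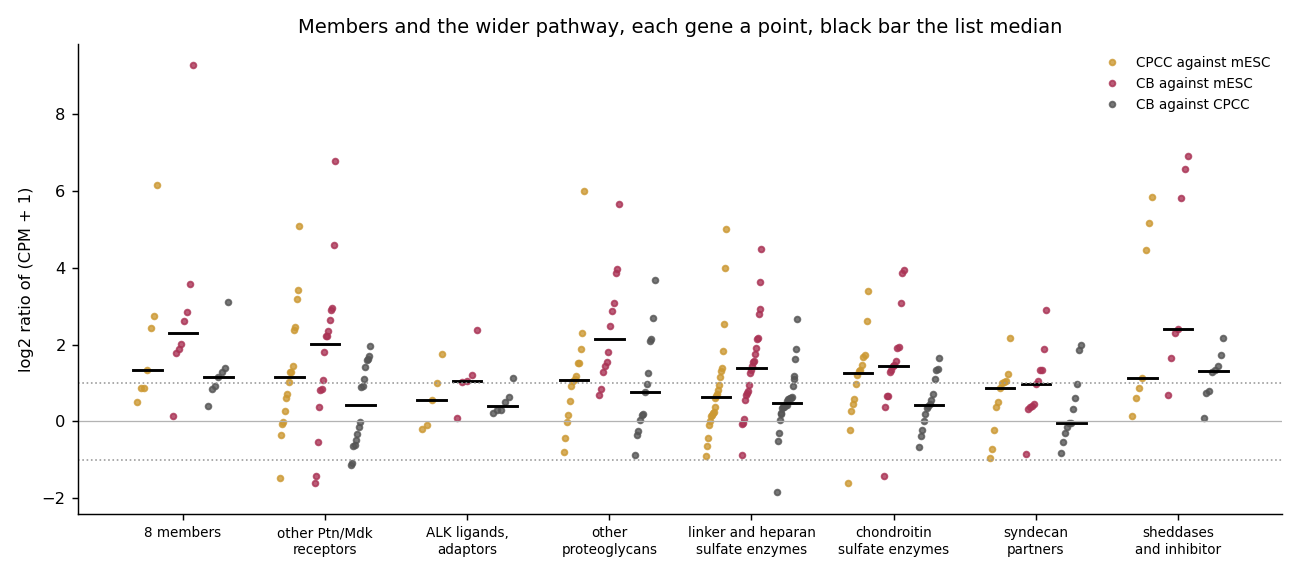
Log2 ratio of (CPM + 1) for each member and each pathway gene in the 3 comparisons, with a black bar for the median of a list and dotted lines at the call of 1 and -1. The member medians are 1.34, 2.32 and 1.14, and the highest list median is that of the sheddases in CB against mESC, at 2.42.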

How the data were processed

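Single cells captured on Fluidigm C1 chips were sequenced with SMART-Seq chemistry. The authors aligned reads with STAR 2.7 to mm10 (submitters' processing notes) and deposited 1 table per culture. The mESC and CB tables hold estimated counts deposited without scaling (29.2% and 31.2% of values were not whole), and the CPCC table holds whole counts as the authors deposited them. The counting model is not given in the sources used here. A table lists only genes that reached at least 1 in some cell. In CPCC, 208 rows without a gene and 23 symbols turned into dates (0.139% of counts) were left out, and 2 columns without a sample were not used. The name of a table gives its culture, and this put it with its sample.

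The 8 genes and all lists were chosen with earlier results of these data known. Counts were summed over cells and scaled to the library total, and ratios are log2 of (CPM + 1), with estimated counts rounded for intervals and thinning. A gene missing from either table was not compared. Shares have exact Clopper-Pearson and sums exact Poisson intervals at 95%. They cover counting error only, since the reads carry no molecular identifiers and are not independent. Thinning left out 22 mESC, 18 CPCC and 22 CB cells. No cell was removed otherwise, and no doublet caller was run. The design had assumed whole counts.

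Clusters were made with Seurat 5.3.0 in R 4.3.3 (scale factor 10000, variable genes of mean 0.0125 to 3 with dispersion over 0.5, counts regressed out, 10 components, resolution 0.6). Named pathway genes were up to 4 per list and comparison with the largest log2 ratio of at least 1 in size, 10 CPM or more in the higher sample and pools that did not overlap. Genes like Ptn or Mdk were the 5 highest Pearson correlations of log2(CPM + 1) over cells with 100000 counts or more, among genes found in at least 25% of them, or over the 8 pools. Alternatives were TMM factors (edgeR 4.0.16), DESeq2 1.42.0 size factors, equal weight per cell, other pseudocounts, a filter on cells, other totals, each pool left out and other cluster settings. Scripts were tested on simulated data with 200 changed genes.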

Additional observations from a re-analysis of the deposited data

How the results depend on the processing

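No paired analysis was possible because each group has 1 sample, replicate numbers are not in the columns and the results come from no test. Of 315 log2 ratios of members recomputed under the alternatives, 292 kept their direction and side of the call, 13 dropped below it and 8 passed it. The other 2 were Ptprz1 in CB against CPCC, not called, which changed sign without CB pool 3 and without CPCC pool 1. Of the called ratios 0 reversed. The number of members higher in CPCC than in mESC was 2 with a pseudocount of 10 CPM, against 4, and 2 to 5 with a pool left out, the 2 without CPCC pool 2. In CB against CPCC it was 2 to 6 with a pool left out, the 2 without CB pool 3 or CPCC pool 1, and it was 6 with all cells weighted equally and 3 with TMM factors, DESeq2 size factors or a pseudocount of 10 CPM, and in CB against mESC it stayed 7 with each pool left out and was 6 with a pseudocount of 10 CPM. The share of CB cells with Ptn was 65.5% at 5 or more counts and 62.9% at 10 or more, since the limit itself removes cells with few counts. The cluster with the highest Ptn level held 29.7% of its CB counts, and 81.1% with 20 components, 29.4% at resolution 1.0, 50.9% with the members kept and 81.1% with the filter on cells. In CPCC it held 79.3%, and 73.4% at resolution 1.0 and 28.4% with the filter on cells. The cause was not tested. With a pseudocount of 10 CPM, which shrinks the ratios of low genes, 18 pathway genes were higher and 0 lower in CPCC against mESC. In CB against mESC 33 were higher and 1 lower, and in CB against CPCC 14 were higher. Beside these, 5.13%, 11.7% and 5.55% of all genes were higher and 1.88%, 6.08% and 3.22% lower. With DESeq2 size factors 5 pathway genes were lower in CB against mESC and 5 in CB against CPCC. The share of all genes lower with these factors is not given here, so nothing is read from these 2 counts. The log2 ratio of Ptn to Mdk per kb in CB was -1.26, and with a pool left out, chosen after seeing the data, -2.72 to 0.11, the last without pool 2. The depth limits what can be said of Alk and of Ptprz1 and Ptn in mESC, which rest on 1 to 5 cells.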
